A study of Mus musculus with 6 samples.

Results

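The genes described here are those of the proteins of the cytosolic ribosome, 83 of the 37305 genes in an expression table of mouse regulatory T (Treg) cells. They were chosen by symbol (Rpl or Rps with a number, Rpsa and Rplp0 to Rplp2) and by a mean level of at least 1 FPKM over the 6 libraries. FPKM is a fragment count scaled by the length of the transcript and by the mapped fragments of the library. The name pattern took 258 genes, of which 163 were pseudogenes by their symbol (ending in "-ps") and 10 were kinases of the S6 protein, and both were left out. Of the 85 genes left, Rpl3l and Rpl10l fell below the minimum, at 0.00642 and 0 FPKM, and Rpl39l was the first above it, at 1.86 FPKM. No symbol stood on more than 1 gene. All 83 entered the comparison of genotypes. They comprise 49 genes with Rpl symbols and 34 with Rps symbols. Among them Rps19bp1 encodes a protein that binds Rps19 and is not part of the ribosome. Whether every other product is part of the ribosome was not checked beyond the symbol.

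Of the 6 libraries, 3 are Junb-deficient and come from mice of the genotype Cd4 Cre Junb fl/fl. Cre recombinase driven by Cd4 there deletes Junb, the gene of an AP-1 transcription factor subunit, in all T cells that pass through the CD4-expressing stage, not in Treg cells alone. The other 3 are controls of the genotype Junb fl/fl, whose loxP-flanked gene is intact. All mice were of the C57BL/6 strain, and the study describes its animals as sex-matched young adults. The cells were CD4+CD25+ Treg cells sorted from spleen, with no stimulation named in the labels, and strand-specific libraries of polyadenylated RNA were made from them.

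The cytosolic ribosome is built from a small (40S) subunit, which reads the messenger, and a large (60S) subunit, which joins amino acids. Each holds ribosomal RNA and one copy of most of its proteins, so the proteins are needed in matched amounts. Their messengers are among the most abundant of a cell, and many begin with a C and a run of pyrimidines, the terminal oligopyrimidine (TOP) tract, through which growth signals by way of mTOR control their translation. Mammalian genomes also hold many processed pseudogenes of these genes, intronless DNA copies of their spliced messengers that were inserted elsewhere.

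Junb, which checks the labels, was at 37.8 to 180 FPKM in Junb-deficient libraries, against 256 to 921 FPKM in control libraries. The highest of each group was its library numbered 1. Foxp3, the defining Treg factor, was at 130 to 153 FPKM in Junb-deficient libraries and at 115 to 161 FPKM in control libraries, and all 8 Treg markers listed were above 1 FPKM. The 8 summed to 1513 to 1697 FPKM in Junb-deficient libraries, against 1772 to 2068 FPKM in control libraries, so the sums did not overlap; their part in the results below was not tested. Dendritic cell markers summed to 39.3 FPKM in Junb-deficient 1, against 70.5 FPKM in control 1. In the other 4 libraries they summed to 4.15 and 5.98 FPKM in Junb-deficient 2 and 3, against 1.47 and 1.42 FPKM in control 2 and 3. For CD8 T and natural killer cells the marker sums were 32.8, 43.3 and 44.5 FPKM in Junb-deficient 1, 2 and 3. In control 1, 2 and 3 they were 41.2, 28.7 and 31.1 FPKM. Myeloid markers summed to 241 FPKM in Junb-deficient 1, against 363 FPKM in control 1 and 136 to 160 FPKM in the other 4, and plasma cell markers to 95.9 FPKM in Junb-deficient 1, against 70.1 FPKM in control 1 and at most 54.3 FPKM in the other 4. Erythroid and platelet markers summed to 9.77 FPKM in Junb-deficient 1, against 36.7 FPKM in control 1 and at most 5.75 FPKM in the other 4, with Pf4 and Ppbp listed at 0 in all libraries. B cell markers summed to 66.7 FPKM in Junb-deficient 1, against 32.5 FPKM in control 1 and 26.0 to 32.6 FPKM in the other 4. In sorted bulk samples fewer cells of a type and less RNA per cell cannot be told apart. The sample names of the libraries numbered 2 and 3 carry a lane suffix that those numbered 1 lack, in both genotypes. FPKM totals were 528608 to 657992 in Junb-deficient libraries and 496684 to 862049 in control libraries. The study states a minimum sequencing depth, but the number of reads behind a value is not given with the FPKM.

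Most of the signal of ribosomal protein messengers in this table lay on near-identical copies of the genes and not on the genes themselves. The coding sequence of each gene was compared with the spliced sequence of every other gene in the table and with the genome (mm9). At 90% identity or more over at least 50% of the coding sequence, 677 other genes matched one of 76 of the 83. Of these copies 499 were annotated as pseudogenes, 171 as protein-coding and 7 as processed transcripts, and 645 consisted of 1 uninterrupted exon. Of the copies 148 reached a mean of 1 FPKM, and 137 of these 148 were of 1 exon. The sequences below show how close the copies are; capitals mark bases that differ between gene and copy.

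Rps27 encodes a zinc-finger protein of the small subunit (chr3:90016593-90017573, minus strand), and its coding sequence occurs without a difference in Gm9846 (chr9:114891571-114891825, minus strand, exonic, annotated as protein-coding). The sequence is given once for the gene and its copy.
Rps27 and Gm9846: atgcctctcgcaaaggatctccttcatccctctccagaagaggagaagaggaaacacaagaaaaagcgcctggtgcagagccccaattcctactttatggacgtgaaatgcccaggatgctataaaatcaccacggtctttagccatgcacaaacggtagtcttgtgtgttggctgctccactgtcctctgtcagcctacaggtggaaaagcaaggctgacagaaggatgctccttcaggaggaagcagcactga
Rpl37a, a zinc-finger protein of the large subunit (chr1:72757834-72760383, plus strand), differs by 1 base in 279 from the pseudogene Gm4149 (chr13:75782344-75782622, plus strand).
Rpl37a: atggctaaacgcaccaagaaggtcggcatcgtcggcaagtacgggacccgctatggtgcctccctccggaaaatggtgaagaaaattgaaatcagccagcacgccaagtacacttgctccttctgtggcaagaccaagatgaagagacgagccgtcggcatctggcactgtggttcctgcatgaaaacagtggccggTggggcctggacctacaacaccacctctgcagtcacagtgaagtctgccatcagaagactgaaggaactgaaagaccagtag
Gm4149: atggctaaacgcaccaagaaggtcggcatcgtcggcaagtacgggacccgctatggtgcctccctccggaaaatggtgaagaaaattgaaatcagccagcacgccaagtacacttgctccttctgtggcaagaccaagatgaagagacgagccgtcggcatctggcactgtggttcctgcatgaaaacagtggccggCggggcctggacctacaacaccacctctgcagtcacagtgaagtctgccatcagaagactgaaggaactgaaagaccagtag
Rps21, a small-subunit protein gene (chr2:179992082-179993150, plus strand), had no copy as close. Its best uninterrupted match in the genome (chr10:79351457-79351710, plus strand, outside the genes of the table) differed by 10 bases and carried 2 bases more.
Rps21: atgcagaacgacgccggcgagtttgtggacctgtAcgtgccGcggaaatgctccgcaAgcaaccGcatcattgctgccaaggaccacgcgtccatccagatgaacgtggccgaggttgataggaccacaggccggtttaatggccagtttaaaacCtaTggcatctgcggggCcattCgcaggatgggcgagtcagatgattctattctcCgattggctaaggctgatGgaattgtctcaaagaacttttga
Rps21 match: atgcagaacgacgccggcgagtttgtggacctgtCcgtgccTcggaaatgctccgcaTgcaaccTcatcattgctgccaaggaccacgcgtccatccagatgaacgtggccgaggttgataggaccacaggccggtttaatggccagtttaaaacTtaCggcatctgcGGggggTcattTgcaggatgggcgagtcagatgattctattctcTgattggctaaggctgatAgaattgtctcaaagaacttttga

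These 3 genes had very different levels. Rps27 was at 10.5, 15.7 and 7.88 FPKM in Junb-deficient 1, 2 and 3, against 5.97, 14.6 and 10.4 FPKM in control 1, 2 and 3. Its copy Gm9846 was at 4631, 12515 and 7909 FPKM in the Junb-deficient libraries, against 3588, 14926 and 17034 FPKM in the controls. The gene thus held 0.107% of the FPKM that gene and copies held together. Rpl37a held 0.327%, with a mean of 24.4 FPKM beside 7420 FPKM for Gm4149. Rps21, whose 1 copy (Gm5963, 92.46% identity) was at 14.7 FPKM, had the highest mean of all 83 genes, 5743 FPKM, and held 99.7% of its sum. Fragments that match a gene and a copy equally cannot be told apart, so the rows of such genes are uncertain one by one. The sum of a gene and its copies, called the family sum here, adds FPKM computed on different lengths and is itself a rough measure. The sources used here do not state how reads with several matches were treated.

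Over all 83 genes, the median of the gene's own mean level was 53.7 FPKM and that of the family sum 2279 FPKM. For 55 genes the own row held under 50% of the family sum, for 35 it held under 5%, and for 18 it held at least 95%. On the own rows 45 genes were below 100 FPKM, and on the family sums 10 were. Levels differed with the closeness of the copies. An uninterrupted match elsewhere in the genome of at least 99% identity over at least 90% of the coding sequence was found for 57 genes, whose own rows had a median of 25.1 FPKM (1.96 to 1063). The highest of these was Rpl29, at 1063 FPKM and 78.2% of its family sum. The 26 genes without one had a median of 1678 FPKM (1.86 to 5743). The median family sum was 2279 FPKM for the 57 and 2320 FPKM for the 26. The limit of 99% was chosen after the levels were seen, so the split is a description.

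**Figure D1:**
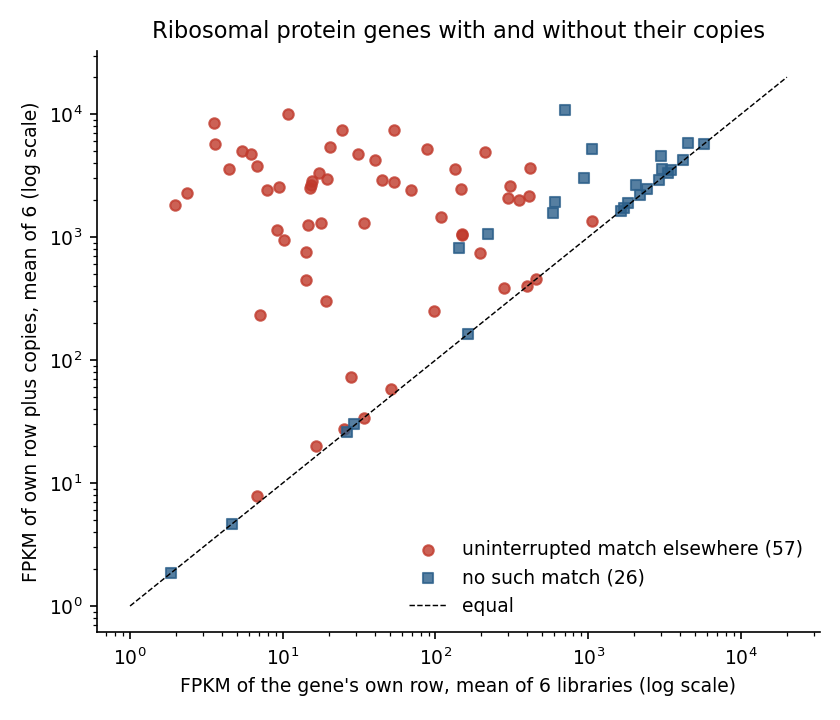
Mean level over 6 libraries of each ribosomal protein gene on its own row (x axis, FPKM, log scale) and with its near-identical copies added (y axis, FPKM, log scale). Circles mark the 57 genes with an uninterrupted genome match of at least 99% identity and squares the 26 without; most circles lie far above the dashed line of equal values, while 22 of the squares lie at 142 FPKM or more on the x axis.

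Of the 26 genes without such a match, 22 had own rows of 142 to 5743 FPKM. The other 4, at 1.86 to 29.4 FPKM, were Rpl39l, Rps4y2 and Rpl7l1, paralogs of ribosomal protein genes by their symbols, and Rps19bp1. Among the 57 with a match, 6 stayed low even with their copies added, at 7.82 to 72.7 FPKM. They were Rpl10, Rpl15, Rpl23, Rpl27, Rpl30 and Rpl36a, all large-subunit proteins. For Rpl23 the only match lay outside the genes of the table (chr6:66825315-66825737, 99.76% identity), and for Rpl10 2 of 6 did. The match of Rpl36a lay within Ddah1 (chr3:145541984-145542304, 100% identity). Rpl15, Rpl27 and Rpl30 had annotated copies, none of them above 2.98 FPKM.

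The 5 highest own rows, at means of 3329 to 5743 FPKM, included those of Rps21, Rpl13a and Rps9, and none of the 5 had a match of 99%. Rpl13a, a large-subunit protein also known for a role in silencing inflammatory messengers, averaged 4441 ± 1025 FPKM in Junb-deficient libraries and 4618 ± 2291 FPKM in controls (SD, n = 3 each). Neighbours in the order of levels among these 5 differed by less than the standard deviation between control libraries of either. The 5 lowest were Rpl39l, Rpl23a, Rpl35, Rps29 and Rps16, at 1.86 to 3.61 FPKM. Rpl39l aside, each of these had a copy at a far higher level, such as Rpl23a-ps3 at 1740 FPKM beside Rpl23a at 1.96 FPKM and Rps16-ps2 at 5684 FPKM beside Rps16 at 3.61 FPKM.

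Genes whose products act together were scattered in the same manner. The ribosomal stalk, which recruits elongation factors, is made of Rplp0, Rplp1 and Rplp2. Rplp0 had a mean of 943 FPKM, Rplp1 2980 FPKM and Rplp2 30.9 FPKM on their own rows. With copies the 3 lay at 3040, 4572 and 4780 FPKM, so they differed by less once the copies were added. Rpl5 and Rpl11, which carry the 5S RNA into the ribosome and bind Mdm2 when assembly fails, were at 7.91 and 9.42 FPKM on their own rows and at 2402 and 2566 FPKM as family sums. Rps27a, which is made as a fusion to ubiquitin, was at 14.3 FPKM and at 448 FPKM with copies. Fau, made as a fusion to a ubiquitin-like protein, carries no Rpl or Rps symbol. It averaged 2.21 ± 1.06 FPKM in Junb-deficient libraries and 2.24 ± 0.55 FPKM in controls (SD, n = 3 each). Gnb2l1, the gene of the scaffold protein Rack1 on the small subunit, was at 1109 to 3426 FPKM. Copies of Fau and Gnb2l1 were not sought, so these are own rows without a family sum. How much of their signal lay on copies is not known.

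Small-subunit genes that are mutated in human Diamond-Blackfan anaemia, a failure of red cell production, ran from 44.5 to 1632 FPKM on their own rows. Rps19, the most often mutated one, had 1632 FPKM and 99.8% of its family sum. Rps24 had 1067 FPKM (20.4%), Rps26 307 FPKM (11.8%), Rps7 69.3 FPKM (2.86%) and Rps10 44.5 FPKM (1.52%). Of the paralogs, Rpl36al at 454 FPKM and Rps27l at 164 FPKM, a p53-inducible relative of Rps27, held 100% of their sums. Rpl22l1, which can stand in for Rpl22, held 3.07% at 7.10 FPKM, beside 1828 FPKM for Rpl22 itself. Pseudogenes that carry the gene's own symbol with "-ps" reached at least 5% of the gene's level for 32 of the 83 genes. These were Rpl3, Rpl5, Rpl7a, Rpl9, Rpl10, Rpl10a, Rpl14, Rpl17, Rpl18, Rpl19, Rpl21, Rpl23a, Rpl27, Rpl28, Rpl31, Rpl34, Rpl35a, Rpl36, Rpl38, Rplp2, Rps2, Rps6, Rps10, Rps12, Rps13, Rps15, Rps16, Rps24, Rps25, Rps26, Rps27a and Rpsa.

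Copies also took the larger share of each library. The 83 own rows summed to 6.99%, 8.89% and 7.09% of all FPKM in Junb-deficient 1, 2 and 3, against 5.23%, 9.03% and 9.32% in control 1, 2 and 3. The 677 copies summed to 17.4%, 28.0% and 22.6% in the Junb-deficient libraries, against 14.9%, 30.6% and 29.7% in the controls. Together they made up 30.4% ± 6.25 of Junb-deficient libraries and 32.9% ± 11.1 of controls (SD, n = 3 each), so the groups overlapped.

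**Figure D2:**
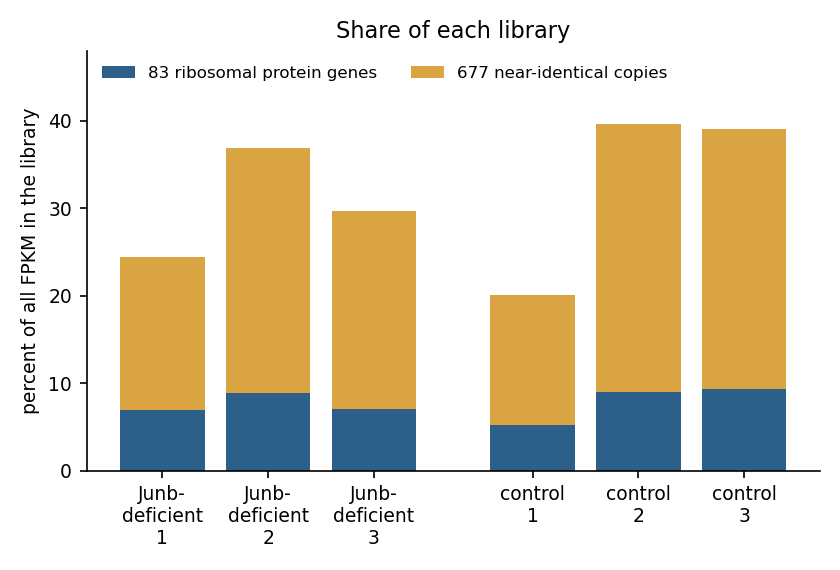
Percent of all FPKM in each library that fell on the 83 ribosomal protein genes (lower part of the bar) and on their 677 copies (upper part). The sum runs from 24.4% to 36.9% in the Junb-deficient libraries and from 20.1% to 39.7% in the controls, and the library numbered 1 is the lowest of each genotype.

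The libraries numbered 1 stood apart in both genotypes. For 62 of the 83 family sums, and for 28 of the own rows, both of them lay below all of the other 4. The shares over all genes were not computed for this count and those that follow, so they describe the 83 genes alone. Across all 11781 genes tested, the libraries numbered 1 also deviated together from the means of their genotypes (correlation 0.57). Control 1 was the lowest of the 6 libraries for 52 family sums and 50 own rows. Junb-deficient 1 behaved in 2 ways. It was the lowest for 25 family sums, yet it was the highest for 18 own rows. Its own rows held a median of 28.4% of the family sum, against 8.82% to 13.7% in the other 5 libraries. The libraries numbered 1 are also those with the higher dendritic, myeloid, plasma cell and erythroid and platelet markers given above. B cell markers were raised in Junb-deficient 1 alone. Whether any of those cells had a part in the ribosomal protein levels was not tested.

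Single genes show the scatter in Junb-deficient 1. Rps7, a small-subunit protein that also binds Mdm2, was at 282, 25.2 and 17.0 FPKM in Junb-deficient 1, 2 and 3, against 19.6, 37.6 and 34.4 FPKM in the controls. Rpl30, whose product regulates its own splicing in yeast, was at 145, 24.0 and 23.4 FPKM in Junb-deficient libraries, against 23.8, 43.6 and 49.0 FPKM in controls. Rps18, at the head of the small subunit, was at 335, 107 and 55.4 FPKM in Junb-deficient libraries, against 37.9, 159 and 182 FPKM in controls. In each of the 3, Junb-deficient 1 was the highest library while the other Junb-deficient libraries lay below control 2 and 3. The reverse was seen in some copies but not in all. Rps12-ps3, a copy of Rps12 with 100% identity, was listed at 0 in Junb-deficient 1, with 1749 FPKM in Junb-deficient 2 and 1198 FPKM in Junb-deficient 3, against 500, 1863 and 2367 FPKM in the controls. Rpl10-ps3 was likewise listed at 0 in Junb-deficient 1, with 53.3 FPKM in Junb-deficient 2 and 42.9 FPKM in Junb-deficient 3, against 20.7, 71.8 and 75.3 FPKM in the controls. By contrast Gm9385, a copy of Rpl24, was highest in Junb-deficient 1. It was at 2946, 2237 and 1411 FPKM in Junb-deficient libraries, against 952, 2875 and 2278 FPKM in controls. For 78 families the same gene or copy led in all 6 libraries. For 3 others (Rpl10, Rpl35a and Rps12) Junb-deficient 1 alone differed, with the gene itself in the lead.

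The comparison of genotypes asked which genes depend on JunB in Treg cells. On the own rows no ribosomal protein gene passed the thresholds of the study (p under 0.05 without adjustment, and more than 0.5 in log2 difference either way) in limma, which fits all 11781 genes with a mean of at least 1 FPKM on log2(FPKM + 1) and moderates their variances. Of the 83, 0 rose and 0 fell, beside 1.67% of all genes tested that rose and 2.89% that fell, and 0 of the 83 had even an unadjusted p under 0.05. Their smallest p was 0.076, with an adjusted p of 0.834 (Benjamini-Hochberg over all genes, limma). No gene of the whole table passed an adjusted p of 0.05 in this fit (0 of 11781, with 636 at an unadjusted p under 0.05). The differences, Junb-deficient minus control on the log2 scale, ran from -1.25 to 0.75 with a median of -0.19, beside -0.05 over all genes, but the median was 0.08, beside 0.18 over all genes, when libraries were rescaled to equal FPKM outside the 83 genes. They were negative for 59 genes and positive for 24. The median standard error was 0.43, and 59 of the 83 differences were smaller than their own error. In 0 of the 83 did the 3 Junb-deficient libraries lie all above or all below the controls, beside 4.58% of all genes tested that lay all above and 6.36% that lay all below.

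**Figure D3:**
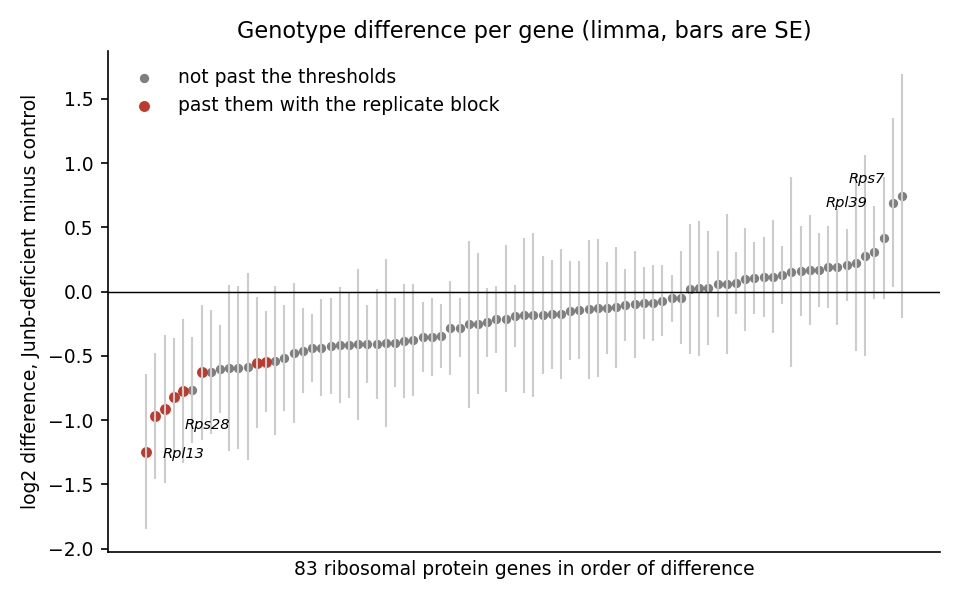
Log2 difference in FPKM + 1 between Junb-deficient and control libraries for each of the 83 genes on its own row, in order of size, with standard errors as bars (limma, 3 libraries per genotype). Differences run from -1.25 for Rpl13 to 0.75 for Rps7, and the red points are the 8 genes that passed the thresholds of the study in the fit with the replicate block.

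Rpl13, a large-subunit protein, had the most negative difference. It was at 61.5, 195 and 81.9 FPKM in Junb-deficient 1, 2 and 3, against 107, 460 and 270 FPKM in control 1, 2 and 3. Each Junb-deficient library was below the control of its number, but the groups overlapped. Rps7 and Rpl39 had the most positive differences, 0.75 with a standard error of 0.95 for Rps7 and 0.69 with one of 0.66 for Rpl39, a small basic protein of the peptide exit tunnel. Rpl39 was at 170, 91.4 and 201 FPKM in Junb-deficient libraries, against 30.2, 198 and 121 FPKM in controls, and so overlapped widely. Next came Rpl22l1 (0.42), Rpl12 (0.31), Rps18 (0.28), Rpl30 (0.23), Rpl10a (0.21) and Rps23 (0.19).

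The libraries numbered 1 deviated together across genes (correlation 0.57), but numbers 2 and 3 were not clearly told apart. Junb-deficient 2 correlated at 0.42 with control 2 and at 0.41 with control 3. Junb-deficient 3 correlated at 0.24 with control 3 and at 0.13 with control 2. Pairing within numbers 2 and 3 is thus an assumption. A fit with the number as a replicate block was set beside the unpaired one. In it 8 of the 83 fell and 0 rose, beside 7.20% of all genes that fell and 3.58% that rose, and 0 of the 83 passed an adjusted p of 0.05 (smallest 0.094, limma). The share of ribosomal protein genes that fell was thus near the background. Among the 8 were Rpl13, Rpl31 and Rpl36al of the large subunit and Rps28, Rps27l, Rps20 and Rps10 of the small subunit by symbol. Rpl13 had a log2 difference of -1.25 with a standard error of 0.21 and an adjusted p of 0.094 in this fit. Rps28, a small protein near the messenger exit of the small subunit, was at 191, 442 and 200 FPKM in Junb-deficient libraries, against 275, 835 and 555 FPKM in controls (log2 difference -0.97, adjusted p = 0.197 with the block in limma). Rps27l was at 60.5, 154 and 143 FPKM in Junb-deficient libraries, against 114, 227 and 284 FPKM in controls (log2 difference -0.82, adjusted p = 0.171 with the block in limma). The paralog Rpl36al was at 206, 451 and 405 FPKM in Junb-deficient libraries, against 239, 621 and 804 FPKM in controls. All 4 were lower than the control of the same number in 3 of 3 numbers. Rps20 (-0.77) and Rps10 (-0.63) were lower in 2 of 3, the exception being number 1. Rpl31 (-0.54) was lower in 3 of 3.

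**Figure D4:**
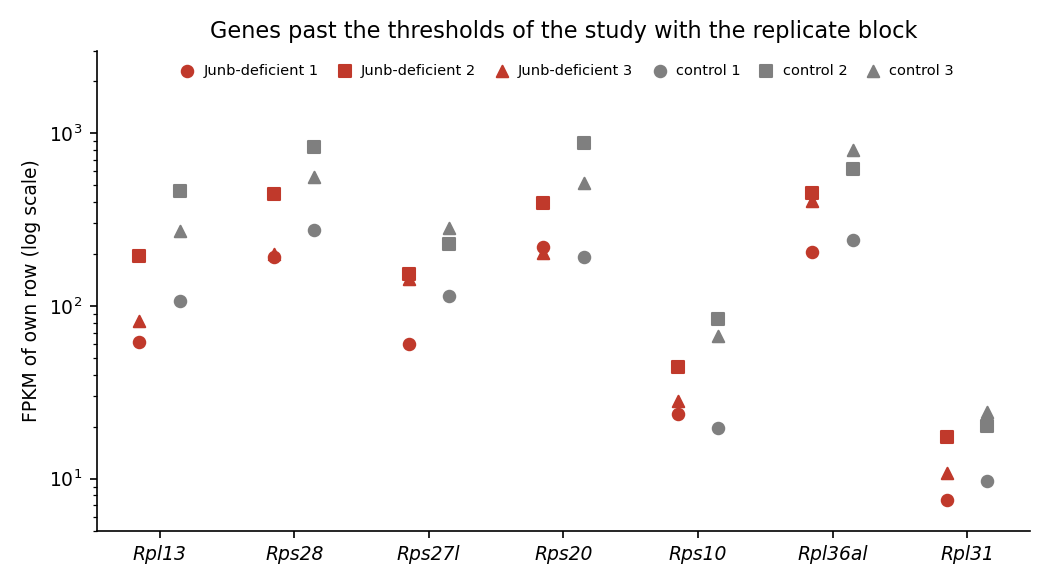
FPKM on the own row (log scale) in each library for 7 of the 8 ribosomal protein genes that passed the thresholds of the study with the replicate block; Junb-deficient libraries stand left of controls, and the marker shape gives the library number. Within each number the Junb-deficient value is below the control except for Rps20 and Rps10 in number 1, while the groups as a whole overlap for all 7.

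When each gene was replaced by its family sum, a comparison added after the data were seen, the differences shifted down. The median was -0.36 with 79 of 83 negative, beside a median of -0.05 over all genes. Without the block 0 rose and 0 fell, beside 197 that rose and 350 that fell of all 11633 genes tested. With the block 10 fell and 0 rose, beside 7.20% of all genes that fell, with a smallest adjusted p of 0.135 (limma). Among the 10 were Rps27l, Rpl13, Rpl10, Rpl31, Rps12, Rps13, Rps20, Rpl36al and Rpl35a. Rps12 had a log2 difference of -2.03, and its lowest library was the one in which its copy was listed at 0. Its family sum was 14.5, 1773 and 1225 FPKM in Junb-deficient libraries, against 510, 1893 and 2396 FPKM in controls. Rps28 and Rps10, which fell on their own rows, did not pass here, with log2 differences of -0.62 and -0.32. The copies as genes of their own gave 1 that rose and 4 that fell of 148 without the block, and 2 that rose and 27 that fell with it. Of the copies 0.676% thus rose and 2.70% fell without the block, beside 1.67% and 2.89% of all genes, and 1.35% rose and 18.2% fell with it, beside 3.58% and 7.20%. Their median was -0.39.

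The direction depended on the library number. Within number 1, 70 of the 83 own rows were higher in the Junb-deficient library, with a median log2 ratio of 0.45. Within number 2, 74 were lower, with a median of -0.46, and within number 3, 79 were lower, with a median of -0.89. The medians over all genes at a mean of at least 1 FPKM were 0.01, -0.14 and -0.04 for numbers 1, 2 and 3. Family sums gave 0.19, -0.36 and -0.95. Family sums were lower within all 3 numbers for 27 genes and higher within all 3 for 0, and own rows were lower within all 3 for 12 genes. Among these 12 were Rpl13, Rpl22, Rpl23, Rpl29, Rpl31, Rpl36al, Rpl39l, Rps19, Rps19bp1, Rps27l and Rps28. The share of all genes lower within all 3 numbers was not computed, so these counts describe the 83 genes alone. With both libraries numbered 1 left out, 44 of the 83 fell and 0 rose, beside 13.2% of all genes that fell. The median was then -0.56, beside -0.10 over all genes. An adjusted p of 0.05 was passed by 1 of the 83, beside 262 of all 11572 genes tested. That gene was Rpl30 (adjusted p = 0.038, limma, 2 libraries per genotype). Without control 1 alone 33 fell, beside 13.1% of all genes, and the median was -0.59. Rps7, Rpl30, Rps18 and Rplp2, which had positive differences over all 6 libraries, were among those that fell without the libraries numbered 1.

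**Figure D5:**
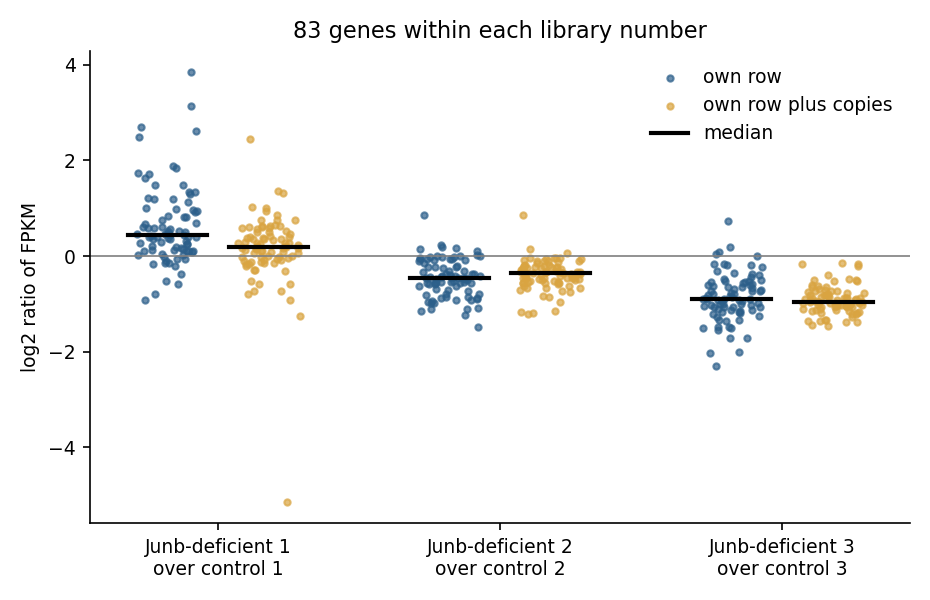
Log2 ratio of FPKM, Junb-deficient over control, for each of the 83 genes within each library number, on the own row and as family sum; black bars are medians. Own-row medians are 0.45, -0.46 and -0.89 for numbers 1, 2 and 3, and the points of number 1 scatter most.

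Family sums varied less between genes than own rows where Junb-deficient 1 was not involved. The standard deviation over genes of the log2 ratio within a number was 0.40 on own rows and 0.31 on family sums for number 2, 0.51 and 0.29 for number 3, and 0.84 and 0.79 for number 1. Over the 15 pairs of libraries it was lower for family sums in 11. The median difference on own rows was -0.19 for Rpl genes and -0.18 for Rps genes, and on family sums -0.36 for Rpl genes and -0.34 for Rps genes.

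Other genes of the ribosome's making and use were measured from lists chosen with earlier results of these data known. Mitochondrial ribosomal proteins, which form the separate ribosome of the mitochondrion, were negative for 71 of 75 with a median log2 difference of -0.35, pseudogene rows left out. Of these 3 fell and 0 rose without the block, and 16 fell with it. Mrps12 averaged 27.1 FPKM in Junb-deficient libraries and 52.6 FPKM in controls (adjusted p = 0.537, limma) and had the smallest p of that list. The constitutive proteasome, the protease of the cytosol, had a median of -0.31 with 31 of 34 negative, 1 fell (Psma5) without the block and 5 with it. Of 41 ribosome assembly factors 2 fell, Pno1 and Brix1, which act in the maturation of the small and the large subunit, and the median was -0.11. Small nucleolar particle proteins (10 tested, median -0.14) and RNA polymerase I subunits (13 tested, median -0.10), which modify and transcribe ribosomal RNA, had 0 that passed without the block.

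Of 35 initiation factors 1 rose (Eif2s3x) and 1 fell (Eif2s2), with a median of -0.18; both encode subunits of the factor that brings the initiator tRNA. Of 11 elongation factors and other TOP messengers 1 fell, Vim, which encodes the filament protein vimentin, and the median was -0.12. Growth signalling genes had a median of 0.15 over 24, and 1 rose, Tsc1, whose product restrains mTOR, while 4 rose with the block. Of 12 genes for the rescue and recycling of ribosomes 1 fell, Mcts1, and the median was -0.10. The 7 S6 kinases tested gave 0 calls and a median of -0.08. Of the groups within the 83, the paralogs (6 tested, median -0.23), the stalk proteins (3, median -0.05), the 5S particle proteins (2, median -0.34) and the anaemia genes (6, median -0.25) gave 0 calls without the block. The background for these counts is the 1.67% of all genes that rose and the 2.89% that fell without the block, and the 3.58% that rose and the 7.20% that fell with it.

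The TOP tract was sought at the start sites. In RefSeq promoter sequences of GRCm38.p6, which matched 61 of the 83 genes with 72 start sites, the annotated first base was a C followed by at least 4 pyrimidines at 18.1% of starts, against 2.51% of all 32851 starts. The first base of an annotation can be off by some bases, and with the tract allowed to lie within 5 bases of it the shares were 43.1% and 18.3%. The windows below run from 10 bases before the start over 30 bases, on GRCm38.p6, with the tract in capitals. They were picked from the 13 of 72 starts that carry the tract at the first base, for members named above whose levels differed widely.
Rps27 (chr3:90213629-90213658, minus strand): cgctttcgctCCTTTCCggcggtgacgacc
Rps21 (chr2:180257369-180257398, plus strand): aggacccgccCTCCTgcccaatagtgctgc
Rpl35 (chr2:39005112-39005141, minus strand): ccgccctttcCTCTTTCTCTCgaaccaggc
Rps10 (chr17:27635225-27635254, minus strand): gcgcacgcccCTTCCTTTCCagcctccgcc
Rps18 (chr17:33955646-33955675, minus strand): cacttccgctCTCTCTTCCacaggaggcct
Rplp2 (chr7:141447641-141447670, plus strand): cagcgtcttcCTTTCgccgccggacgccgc
A match of letters is a description and says nothing of how these messengers were translated, which was not measured.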

How the data were processed

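Polyadenylated RNA of Treg cells of 2 genotypes, 3 libraries each, was measured. The deposited values are FPKM, for which the submitters' processing notes name TopHat2 2.2.1, Cufflinks and the build mm9. Scaling between libraries and the treatment of strand and of reads with several matches are not given in the sources used here. Read numbers are not part of the values, so depth limits cannot be given. Nothing says that libraries came from separate mice, so p-values measure the spread between these samples. The table's columns for libraries 1 were matched by elimination, as their titles lack a number.

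Positions came from the GENCODE annotation of mm9, in which all 37305 identifiers were found. Coding sequences were taken from the lowest-numbered transcript of each gene and searched with BLAST+ 2.17.0 (e-value limit 1e-10). Genes at a mean of at least 1 FPKM were tested 2-sided with limma (version 3.58.1, R 4.3.3) on a log2(FPKM + 1) scale. The variance trend was used and p-values were adjusted over all genes tested. The thresholds were those of the study. With 3 libraries a genotype, 0.1 is the smallest p of an exact 2-sided test. Fits were tested on simulated data. Python 3.11.15 with pandas 2.3.3, numpy 2.4.6 and matplotlib 3.10.9 served for tables and plots.

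Whether numbers pair the libraries was checked by correlating deviations from the genotype mean across 11781 genes, which are not independent. Within a genotype the deviations of a gene cancel out over its libraries, so the correlations also constrain one another. Same numbers gave 0.57, 0.42 and 0.24, and other pairs -0.53 to 0.41. The highest of the other pairs was Junb-deficient 2 with control 3, so pairing within numbers 2 and 3 is an assumption.

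The genes and lists were chosen with earlier results of these data known. Genes named are those past the thresholds, the 5 highest and lowest levels, the 8 largest differences each way, the paralogs, stalk, 5S, fusion and anaemia genes, genes with a "-ps" row of at least 5% of their level, and up to 3 genes of smallest p per list. Others, and all copies, were named after their values were seen. Some genes that these rules name are not reported here. Alternatives were a pseudocount of 0.1, no filter, a mean of at least 5 FPKM, median-ratio and quantile scaling, no variance trend, a replicate block by library number, the lane suffix in sample names as a term, a correction for exon length (loess, span 0.5), protein-coding genes only, a rescaling to equal sums outside the 83 genes, and libraries left out. Added after seeing the data were family sums and a rescaling to equal sums outside genes and copies.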

Additional observations from a re-analysis of the deposited data

How the results depend on the processing

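The count of ribosomal protein genes past the thresholds of the study stayed at 0 in both directions with a pseudocount of 0.1, no filter, a mean of at least 5 FPKM, median-ratio or quantile scaling, no trend, the length correction, protein-coding genes only, family sums without the block, and both rescalings. With the replicate block, which uses the pairing by library number, 8 fell, with the lane suffix as a term 5 fell (7.13% of all genes), and with the replicate block and length correction together 1 rose (Rpl22l1) and 5 fell (3.22% and 4.38% of all genes). Family sums with the replicate block gave 10 that fell, and leaving out both libraries numbered 1 gave 44. Leaving out 1 library gave 0 to 33 that fell and 0 that rose, with 4 without Junb-deficient 2 (2.20% of all genes) and 33 without control 1 (13.1%). The median log2 difference was -0.59 to -0.01 with 1 library left out, -0.05 with the length correction or quantile scaling, and 0.02 (0.13 over all genes) with equal sums outside genes and copies. With both libraries numbered 1 left out 7 genes turned from positive to a call below 0, namely Rps7 (-0.77), Rpl30 (-0.94), Rps18 (-1.13), Rplp2 (-0.74), Rps15a (-1.11), Rps3a (-0.89) and Rps4x (-0.83), and so did Rps13 (-0.66) as a family sum with the block. Of the other values of named genes, 1086 kept their sign and side of the thresholds, 83 passed the thresholds only in the alternative, and 161 changed sign without a call. Apart from number 1, whose libraries are left out in that alternative, the cause of these changes was not tested. The block changed no call of a named gene other than those given. Read numbers behind the FPKM are not given with the values, so what depth limits cannot be stated.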
